A study of Mus musculus with 26 samples.

Results

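The change in lung gene expression over the second day of continuous O3 exposure was measured in Il10+/+ mice, by setting the 3 arrays of mice exposed for 48 hr against the 3 arrays of mice exposed for 24 hr, which are 6 of the 26 arrays of the series. The mice were male C57BL/6 animals of 6-8 weeks from a commercial breeder, and their left lungs were taken after 0.3 ppm O3 for 23.5 hr a day. No gene was altered in them, and they were the wild type for Il10-/- mice of the line B6.129P2-Il10tm1Cgn/J (spelled Il10tmlCgn/J in the labels). The other arrays were of Il10+/+ mice exposed for 72 hr (3 arrays) or kept in filtered air for 24 or 48 hr (2 arrays each), and of Il10-/- mice under the same exposures. No air array of 72 hr was used here. Each array held RNA of a whole left lobe, so that more cells of a type and more RNA per cell cannot be told apart. The labels number the arrays of a group but do not say that each was of a separate mouse, and p-values measure the spread between arrays.

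O3 is a reactive gas that injures the lining of the airways and of the first alveoli, and the lung repairs this lining by division of club cells and alveolar type 2 cells. A cell that enters division first makes the proteins that load and fire replication origins and supply nucleotides, and later those that condense chromosomes, build the spindle and cut the cell apart. Promoters of the replication genes often carry sites for E2F factors, and those of the mitotic genes a pair of elements, the CCAAT box and the cell cycle homology region (CHR).

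Of the 101 genes that rose, 60 were on the lists of DNA replication or mitosis genes. Promoters are shown here for the 6 of these 60 with the largest rises on the second day that had an entry. Each window runs from 250 bases before to 50 bases after the start of transcription on the strand of the gene, from RefSeq on GRCm38.p6, and the capitals mark matches, on either strand, to the CCAAT box (CCAAT, or ATTGG on the other strand), to the CHR (TTTGAA or TTCGAA, or TTCAAA on the other strand) or to E2F sites (TTTCCCGC, TTTCGCGC, TTTGCCGC or TTTGGCGC, or their reverse complements). The windows lie at chr7:135716330-135716629 (minus strand) for Mki67, chr11:117848987-117849286 (plus strand) for Birc5, chr12:24708004-24708303 (plus strand) for Rrm2, chr11:99024140-99024439 (minus strand) for Top2a, chr10:69352863-69353162 (minus strand) for Cdk1 and chr9:70421505-70421804 (minus strand) for Ccnb2.
Mki67: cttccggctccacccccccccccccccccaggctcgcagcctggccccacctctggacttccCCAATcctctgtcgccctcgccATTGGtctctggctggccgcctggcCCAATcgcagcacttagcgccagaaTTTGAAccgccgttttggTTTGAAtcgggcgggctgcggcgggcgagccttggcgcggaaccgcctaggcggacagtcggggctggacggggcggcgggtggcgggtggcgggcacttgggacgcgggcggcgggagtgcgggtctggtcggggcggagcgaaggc
Birc5: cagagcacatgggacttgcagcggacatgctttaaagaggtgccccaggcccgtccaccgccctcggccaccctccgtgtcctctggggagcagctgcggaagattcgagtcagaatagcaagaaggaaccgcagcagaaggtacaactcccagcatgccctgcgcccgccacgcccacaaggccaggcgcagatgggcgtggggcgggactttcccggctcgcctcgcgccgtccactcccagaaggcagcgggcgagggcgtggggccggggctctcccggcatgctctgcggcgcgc
Rrm2: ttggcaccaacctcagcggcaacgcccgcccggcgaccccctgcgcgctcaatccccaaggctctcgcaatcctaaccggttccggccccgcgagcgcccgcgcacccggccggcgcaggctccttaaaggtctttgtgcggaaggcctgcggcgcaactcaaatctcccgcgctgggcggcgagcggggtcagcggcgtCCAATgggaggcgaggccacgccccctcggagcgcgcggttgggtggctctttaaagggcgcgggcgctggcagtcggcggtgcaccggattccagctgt
Top2a: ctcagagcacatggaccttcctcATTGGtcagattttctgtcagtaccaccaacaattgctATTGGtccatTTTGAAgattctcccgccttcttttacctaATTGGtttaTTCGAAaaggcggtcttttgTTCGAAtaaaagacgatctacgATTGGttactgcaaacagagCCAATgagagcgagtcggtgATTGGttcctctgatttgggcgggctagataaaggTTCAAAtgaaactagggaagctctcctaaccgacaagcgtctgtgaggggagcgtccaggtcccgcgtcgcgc
Cdk1: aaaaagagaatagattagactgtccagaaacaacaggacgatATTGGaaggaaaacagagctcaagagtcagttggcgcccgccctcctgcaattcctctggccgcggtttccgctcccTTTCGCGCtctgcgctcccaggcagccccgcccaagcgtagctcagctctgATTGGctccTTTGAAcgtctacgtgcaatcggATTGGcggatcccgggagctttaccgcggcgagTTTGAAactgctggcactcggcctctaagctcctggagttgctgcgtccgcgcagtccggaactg
Ccnb2: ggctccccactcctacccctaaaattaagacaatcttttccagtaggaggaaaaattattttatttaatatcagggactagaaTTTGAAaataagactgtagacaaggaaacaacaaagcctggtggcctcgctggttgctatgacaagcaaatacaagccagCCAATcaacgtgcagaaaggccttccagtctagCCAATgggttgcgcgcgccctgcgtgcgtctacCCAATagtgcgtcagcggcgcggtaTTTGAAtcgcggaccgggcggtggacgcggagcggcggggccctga

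Mki67, Top2a, Cdk1 and Ccnb2 held both elements, with 3 CCAAT boxes and 2 CHR matches in each of Mki67, Cdk1 and Ccnb2 and 6 CCAAT boxes and 4 CHR matches in Top2a. Cdk1 also held 1 E2F match, Rrm2 held 1 CCAAT box, and the window of Birc5 held none of these letters. A CCAAT box and a CHR stood together in 25 of the 34 promoters of mitotic genes that rose (73.5%), against 5.96% of the 9888 promoters of all genes tested. An E2F match stood in 5 of the 15 promoters of replication genes that rose (33.3%), against 3.57% of all. These are matches of letters and not measured binding, and genes were put in these sets by name and by their change.

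Expression of 101 genes was significantly higher and that of 9 genes significantly lower at 48 hr than at 24 hr of O3 in Il10+/+ lungs (limma over 25 arrays, Benjamini-Hochberg adjusted p under 0.05), which are 0.815% and 0.0726% of the 12394 genes tested and 0.888% together. Members of the lists of DNA replication and of mitosis made up 60 of the 101, and others of the 101 also act in cell division. Among the genes that rose, the median change was 1.01 on the log2 scale, a 2.02-fold rise, and the largest was the 5.85-fold rise of Mki67. The 9 falls were smaller, between 0.40 and 0.64 on the log2 scale. In all 110 genes the 3 arrays of 48 hr lay apart from the 3 arrays of 24 hr. They did so, in the 2 directions, in 8.94% and 10.7% of all genes. As the 110 were chosen by a test of these same arrays, their separation is in large part a result of that choice. The median change over all genes was -0.02. Of the 110 genes 51 had further probe sets, 77 in all. Of these 77, 65 had a change of the same sign, 19 of them past the threshold, and 0 passed in the opposite direction. Those of Top2a (-0.10), Spc25 (-0.11) and Cdca3 (-0.09 and -0.25) had changes below 0, and that of Cep55 (0.44) did not pass. Those of Rrm2 (1.73 and 2.16) and Ccna2 (2.52) passed.

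The calls depended on which arrays shared the fit. The 25 arrays leave out Il10-/- O3 24 hr replicate 2, and with all 26 arrays 0 genes passed (637 at an unadjusted p under 0.05, against 1258 over 25 arrays, by limma). With only the 13 Il10+/+ arrays 149 genes were higher and 20 lower, and with only the 6 arrays compared 106 were higher and 4 lower. The 101 fell to 58 without Il10+/+ O3 48 hr replicate 3, to 60 without O3 24 hr replicate 1 and to 66 without O3 24 hr replicate 3. In all, 53 of the 110 genes kept their call whichever of the 25 arrays was left out.

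**Figure D1:**
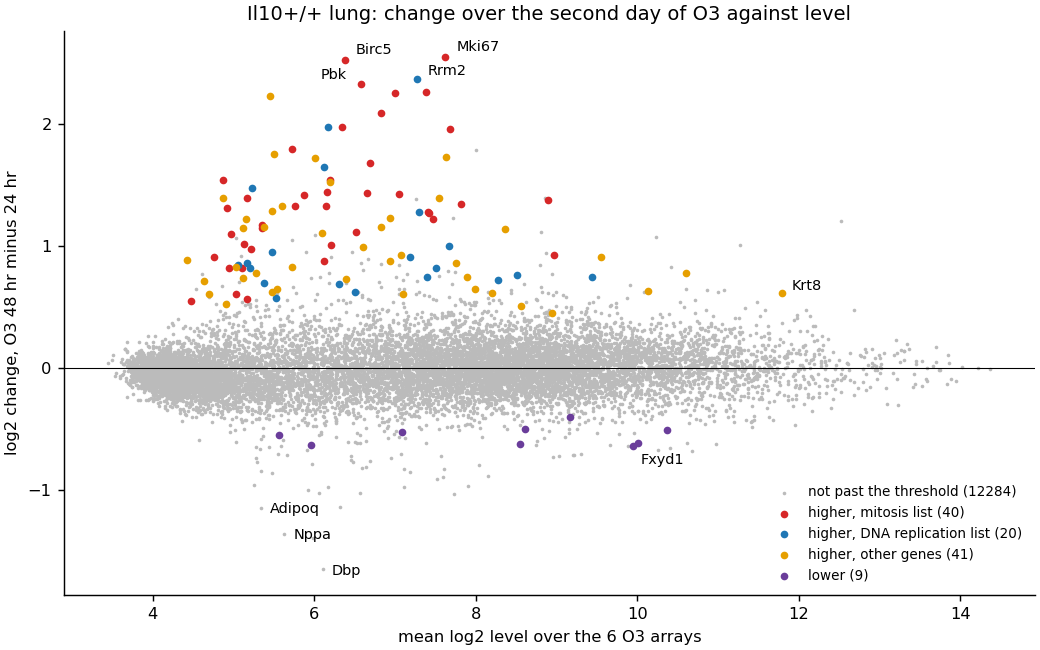
Log2 change of each of the 12394 genes, O3 48 hr minus 24 hr in Il10+/+ lungs, against its mean log2 level over the 6 arrays, with the genes past the threshold in colour. The 101 genes that rose reach a change of 2.55, while the 9 genes that fell lie within 0.64 of 0, and the largest negative changes, such as those of Dbp, Nppa and Adipoq, did not pass the threshold.

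Genes of DNA replication rose by 48 hr of O3. Of 42 measured genes on this list 20 rose and 0 fell, all 42 had a change above 0, and the median change was 0.69. Rrm2, the small subunit of ribonucleotide reductase, which makes deoxynucleotides, had log2 levels of 8.18, 8.46 and 8.74 at 48 hr, against 6.16, 6.07 and 6.03 at 24 hr. This was a 5.16-fold rise (log2 change 2.37, SE 0.42, adjusted p = 0.00343), and no array of 24 hr came near those of 48 hr. The large subunit Rrm1 rose by 0.72, the thymidine kinase Tk1 by 1.65 and the dUTPase Dut by 0.69, so that 4 of the 5 genes of nucleotide supply passed. Thymidylate synthase, Tyms, did not (4.10, 4.08 and 4.29 at 48 hr, against 4.04, 3.91 and 4.01 at 24 hr). These levels lay far below the array medians of 6.54 to 6.68, so that its probe set may have missed a change.

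Among 14 genes that license origins and form the replicative helicase 7 rose, by 0.69 to 1.28. Mcm5, a helicase subunit, had levels of 7.96, 7.91 and 7.94 at 48 hr, against 6.47, 6.82 and 6.69 at 24 hr, a change of 1.28 (SE 0.25, adjusted p = 0.00869). The licensing factors Cdt1 and Cdc6 rose by 1.00 and 0.86, and geminin, Gmnn, which blocks Cdt1, by 0.75. The helicase subunits Mcm4 and Mcm7 also rose, by 0.76 and 0.74, as did Gins1 by 0.69, whereas Mcm2, Mcm3 and Mcm6 did not pass. Mcm6 had a larger change than most that did (9.28, 9.38 and 9.55 at 48 hr, against 8.41, 8.52 and 8.52 at 24 hr), with an adjusted p of 0.361 over 25 arrays and of 0.000506 over the 13 Il10+/+ arrays.

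Of 14 polymerase, primase, clamp and ligase genes 5 rose, namely the catalytic subunit of polymerase epsilon, Pole (0.95), both primase subunits, Prim1 (0.91) and Prim2 (0.57), DNA ligase 1, Lig1 (0.81), and the single-strand binding protein Rpa2 (0.62). The sliding clamp Pcna did not pass (adjusted p = 0.0754), with levels of 11.47, 11.63 and 11.61 at 48 hr, against 10.84, 11.15 and 11.26 at 24 hr. Of 9 genes of chromatin assembly, DNA methylation and repair 4 rose. Uhrf1, which guides DNA methylation to newly copied DNA, had levels of 7.06, 7.18 and 7.23 at 48 hr, against 4.88, 5.22 and 5.47 at 24 hr, a 3.92-fold rise (log2 change 1.97, SE 0.29, adjusted p = 0.000579). The remodeller Hells rose by 1.47, the repair gene Brca1 by 0.85 and the histone chaperone subunit Chaf1b by 0.82.

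Genes of mitosis and chromosome segregation also rose. Of 55 measured genes 40 rose and 0 fell, 53 had a change above 0, and the median change was 1.15. Mki67, whose protein Ki-67 coats mitotic chromosomes and marks dividing cells, had levels of 8.33, 8.78 and 9.58 at 48 hr, against 6.45, 6.68 and 5.91 at 24 hr (log2 change 2.55, SE 0.33, adjusted p = 0.000174). Its lowest array at 48 hr was above its highest at 24 hr by more than 1 log2 unit. Top2a, the topoisomerase that untangles chromosomes, had 8.06, 8.54 and 8.94 at 48 hr, against 5.98, 6.69 and 6.08 at 24 hr, a 4.80-fold rise (SE 0.29 on the log2 scale, adjusted p = 0.000119). Among the condensin genes, Smc2 (1.42), Ncapd2 (1.11) and Ncapg (0.91) rose, and Smc4 and Ncaph did not pass.

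Cdk1, the main kinase of mitotic entry, had levels of 7.71, 8.07 and 8.60 at 48 hr, against 5.72, 6.28 and 5.62 at 24 hr, a 4.76-fold rise (log2 change 2.25, SE 0.33, adjusted p = 0.000579). Its cyclins rose with it. Ccna2 had 7.81, 7.55 and 8.25 at 48 hr, against 5.71, 6.00 and 5.62 at 24 hr, and Ccnb2 had 7.01, 7.40 and 7.58 at 48 hr, against 5.33, 5.70 and 5.03 at 24 hr, changes of 2.09 and 1.98. The small Cdk subunits Cks1b and Cks2 rose by 1.37 and 1.34. The transcription factors Foxm1 and Mybl2 and the phosphatase Cdc25c did not pass, with changes of 0.29, -0.09 and 0.09.

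Mitotic kinases and the chromosomal passenger complex were the most complete large group, with 10 of 11 genes higher. Birc5, survivin, a subunit of that complex, had levels of 7.24, 7.74 and 7.96 at 48 hr, against 4.86, 5.53 and 4.97 at 24 hr, a 5.75-fold rise (log2 change 2.52, SE 0.34, adjusted p = 0.000237). Its partners Incenp and Aurkb rose by 1.22 and 0.81. The mitotic kinase Pbk had 7.39, 8.00 and 7.81 at 48 hr, against 5.24, 5.97 and 5.03 at 24 hr, a change of 2.32. Bub1 (1.42), Aurka (1.33), Plk1 (1.32), Melk (1.01), Bub1b (0.87) and Ttk (0.55) rose less far, and Nek2 did not pass.

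Of 14 kinesin and spindle genes 10 rose, led by Nusap1 (1.54), Prc1 (1.44), Aspm (1.39) and Kif20a (1.31). Of 7 centromere and kinetochore genes 4 rose, namely Spc25 (1.79) and Nuf2 (1.10) of the Ndc80 complex, the centromeric histone Cenpa (1.01) and Cenpk (1.17). All 3 genes of cytokinesis rose, Anln by 1.68, Ect2 by 1.54 and Racgap1 by 1.43. The checkpoint gene Mad2l1 rose by 1.27. Ube2c, an enzyme that marks proteins for destruction at anaphase, had levels of 8.31, 8.59 and 9.09 at 48 hr, against 6.88, 6.80 and 6.44 at 24 hr, a change of 1.96 (SE 0.45, adjusted p = 0.0343). This call was lost whichever of the 6 arrays compared was left out. Cdc20, its partner in anaphase, had 8.59, 9.03 and 9.08 at 48 hr, against 6.87, 7.45 and 7.01 at 24 hr, and did not pass over 25 arrays (adjusted p = 0.0639), but did over the 13 Il10+/+ arrays (adjusted p = 0.00181).

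**Figure D2:**
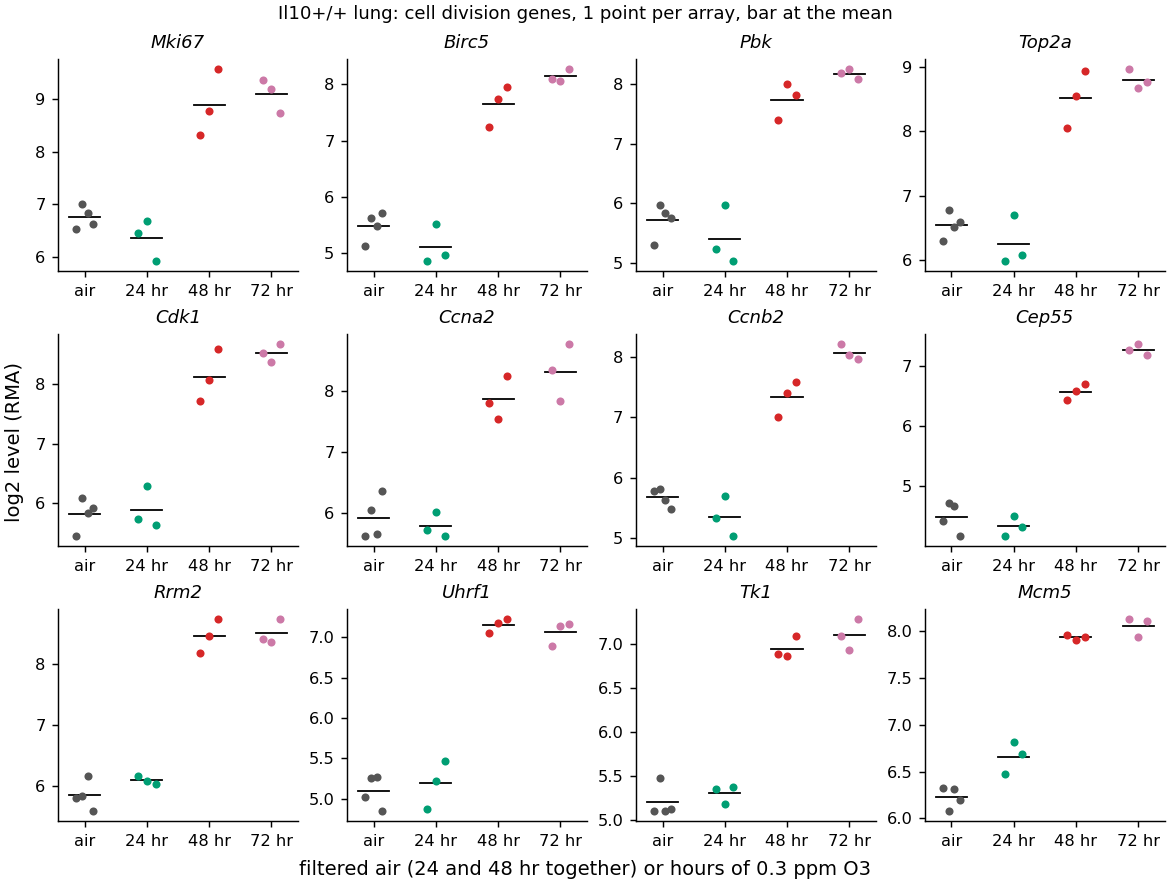
Log2 level of 12 cell division genes in Il10+/+ lungs, 1 panel per gene with its own vertical scale, in filtered air (4 arrays) and after 24, 48 and 72 hr of O3 (3 arrays each), each point an array and each bar the mean of a group. In all 12 genes the arrays of 48 hr and 72 hr lie above those of 24 hr; Mki67 reached 8.33 to 9.58 at 48 hr, against 5.91 to 6.68 at 24 hr.

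Of the 37 division genes that did not pass, 28 had arrays of 48 hr that all lay above those of 24 hr. In the 97 genes of both lists the share with such a separation was 88 of 97, against 8.94% of all genes. All lists were written with earlier results of these data known, which limits each contrast of a list with all genes. Of the 97 only Mybl2 and Pttg1, the gene of securin, had a change below 0 (-0.09 and -0.11). A smaller share passed of genes that act before replication. Of 25 measured G1 cyclins, E2F factors and Cdk inhibitors 3 rose and 0 fell, with a median change of 0.13. The share that rose was 12.0%, against 0.815% of all genes, 47.6% of the replication list and 72.7% of the mitosis list. The 3 were the cyclin Ccne2, the ubiquitin ligase subunit Skp2 (a change of 0.62) and the pocket protein Rbl1 (0.60). Ccne2 had 4.55, 4.69 and 5.35 at 48 hr, against 4.00, 3.98 and 3.96 at 24 hr. Its call was kept in 12 of the 25 fits that left out an array. The other probe sets of Skp2 had changes from -0.09 to 0.39 and did not pass. The growth factor-induced gene Myc had 7.28 ± 0.092 at 48 hr, against 6.93 ± 0.076 at 24 hr (SD, n = 3 each, limma adjusted p = 0.468). The Cdk inhibitor Cdkn1a had 10.59, 10.50 and 10.28 at 48 hr, against 10.95, 10.46 and 10.74 at 24 hr (limma adjusted p = 0.72). None of the 20 measured p53 targets passed, where 0.888% of all genes did.

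Outside the lists of replication and mitosis 41 genes rose, Ccne2, Skp2 and Rbl1 among them. The largest of these changes were those of Cep55, Cdca5, Pclaf and Cdca3. Cep55, which acts in the final separation of daughter cells, had levels of 6.44, 6.58 and 6.69 at 48 hr, against 4.18, 4.51 and 4.33 at 24 hr, a change of 2.23 (SE 0.22) with the lowest adjusted p of all genes, 1.28e-05. Cdca5, sororin, which holds sister chromatids together, rose by 1.75, Pclaf, a partner of the sliding clamp, by 1.73, and Cdca3 by 1.72. Ncapg2 of the second condensin (1.52), the checkpoint ATPase Trip13 (1.39), the kinetochore protein Cenpf (1.32), the centriole kinase Plk4 (1.15), the origin kinase subunit Dbf4 (0.99), Topbp1 (0.86) and the checkpoint kinase Chek1 (0.71) also rose. The histone methyltransferase Ezh2 rose by 0.88, the histone acetyltransferase Hat1 by 0.74, the histone chaperone Nasp by 0.65 and Hpf1, a partner of PARP1, by 0.51. Hat1 had 8.02, 8.25 and 8.53 at 48 hr, against 7.25, 7.66 and 7.66 at 24 hr.

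Genes of injured epithelium were mixed. Of 31 measured keratins, cornified envelope genes and related genes 3 rose (9.68%, against 0.815% of all genes) and 0 fell. Among the 31, 22 had a change above 0 and 9 below, and the median change was 0.30. The arrays of 48 hr all lay above those of 24 hr in 9 of them and all below in 5, against 8.94% and 10.7% of all genes. The list's median level relative to air was 0.19 at 48 hr, against 0.21 at 24 hr. S100a14, a calcium-binding protein of epithelia, had levels of 7.34, 7.22 and 8.11 at 48 hr, against 6.31, 6.42 and 6.25 at 24 hr, a 2.34-fold rise (log2 change 1.23, SE 0.28, adjusted p = 0.0306). Krt8, a keratin of simple epithelia, had 12.15, 11.94 and 12.20 at 48 hr, against 11.51, 11.63 and 11.33 at 24 hr, a change of 0.61 (adjusted p = 0.0154). Ereg, the growth factor epiregulin, which activates the epidermal growth factor receptor, had 5.50, 5.58 and 5.39 at 48 hr, against 4.81, 4.77 and 4.69 at 24 hr, a change of 0.73 (adjusted p = 0.0382). The calls of S100a14 and Krt8 were each lost without any of 4 of the 6 arrays compared, and that of Ereg without any of the 6. Krt18, the partner of Krt8 (11.05, 11.01 and 11.47 at 48 hr, against 10.48, 10.63 and 10.50 at 24 hr), and Krt7 had adjusted p of 0.073 and 0.0595.

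The remaining rises included genes of matrix and of leukocytes. Vcan, the matrix proteoglycan versican, had levels of 5.83, 5.93 and 6.11 at 48 hr, against 4.52, 5.13 and 4.77 at 24 hr. This was a 2.22-fold rise (log2 change 1.15, SE 0.18, limma adjusted p = 0.000951). Vcan was the only 1 of 33 measured genes of collagens and provisional matrix to pass (3.03%, where 0.815% of all genes rose). Ctsk, a protease that degrades collagen, rose by 1.14, with 1 array of 24 hr (8.35, against 7.62 and 7.41 on the others) near the arrays of 48 hr (9.11, 8.71 and 8.99). Tgfbi, a matrix protein induced by TGF-beta, rose by 0.78. Tnfsf9, the ligand 4-1BBL of leukocytes, had 7.43, 7.64 and 7.55 at 48 hr, against 6.50, 6.62 and 6.73 at 24 hr, a change of 0.92 (SE 0.20, adjusted p = 0.022). Clec7a, the macrophage receptor dectin-1, rose by 0.63 with a limma adjusted p of 0.0468. It was the only 1 of 26 macrophage and alternative activation genes to pass (3.85%, where 0.815% of all genes rose). Its call was lost without any of the 6 arrays compared and kept in only 4 of the 25 fits that left out an array. The calls of Tnfsf9 and Tgfbi were each lost without any of 5 of the 6 arrays and that of Ctsk without any of 4, while that of Vcan was kept in all 25 fits.

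Only 9 genes fell, and 8 of them stood on none of the 36 lists. Fxyd1, a regulator of the sodium pump, had levels of 9.77, 9.73 and 9.40 at 48 hr, against 10.31, 10.34 and 10.16 at 24 hr, a change of -0.64 (SE 0.12, adjusted p = 0.00718). The claudin Cldn15, of tight junctions, had 5.58, 5.68 and 5.68 at 48 hr, against 6.42, 6.22 and 6.21 at 24 hr, a change of -0.63 (SE 0.14, adjusted p = 0.0195). Ephx1, the microsomal epoxide hydrolase, which detoxifies epoxides, was the exception on a list, that of 30 measured NRF2 targets and glutathione genes. It had 10.26, 10.06 and 10.01 at 48 hr, against 10.55, 10.75 and 10.55 at 24 hr (adjusted p = 0.0416). The other falls were those of Ccrl2, a receptor that binds chemerin (-0.62), Lims2, of focal adhesions (-0.62), Tmem38a, a channel of the sarcoplasmic reticulum (-0.55), the zinc finger gene Zkscan14 (-0.52), Smim27 (-0.50) and the hyaluronidase Hyal2 (-0.40). Each of these 9 calls was lost without at least 1 of the 6 arrays compared. Only that of Zkscan14 remained without O3 48 hr replicate 3. Levels on that array were the lowest of the 3 for Fxyd1, Ccrl2, Lims2, Ephx1, Tmem38a, Smim27 and Hyal2. The call of Ephx1 was kept in only 6, and that of Tmem38a in only 7, of the 25 fits that left out an array.

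**Figure D3:**
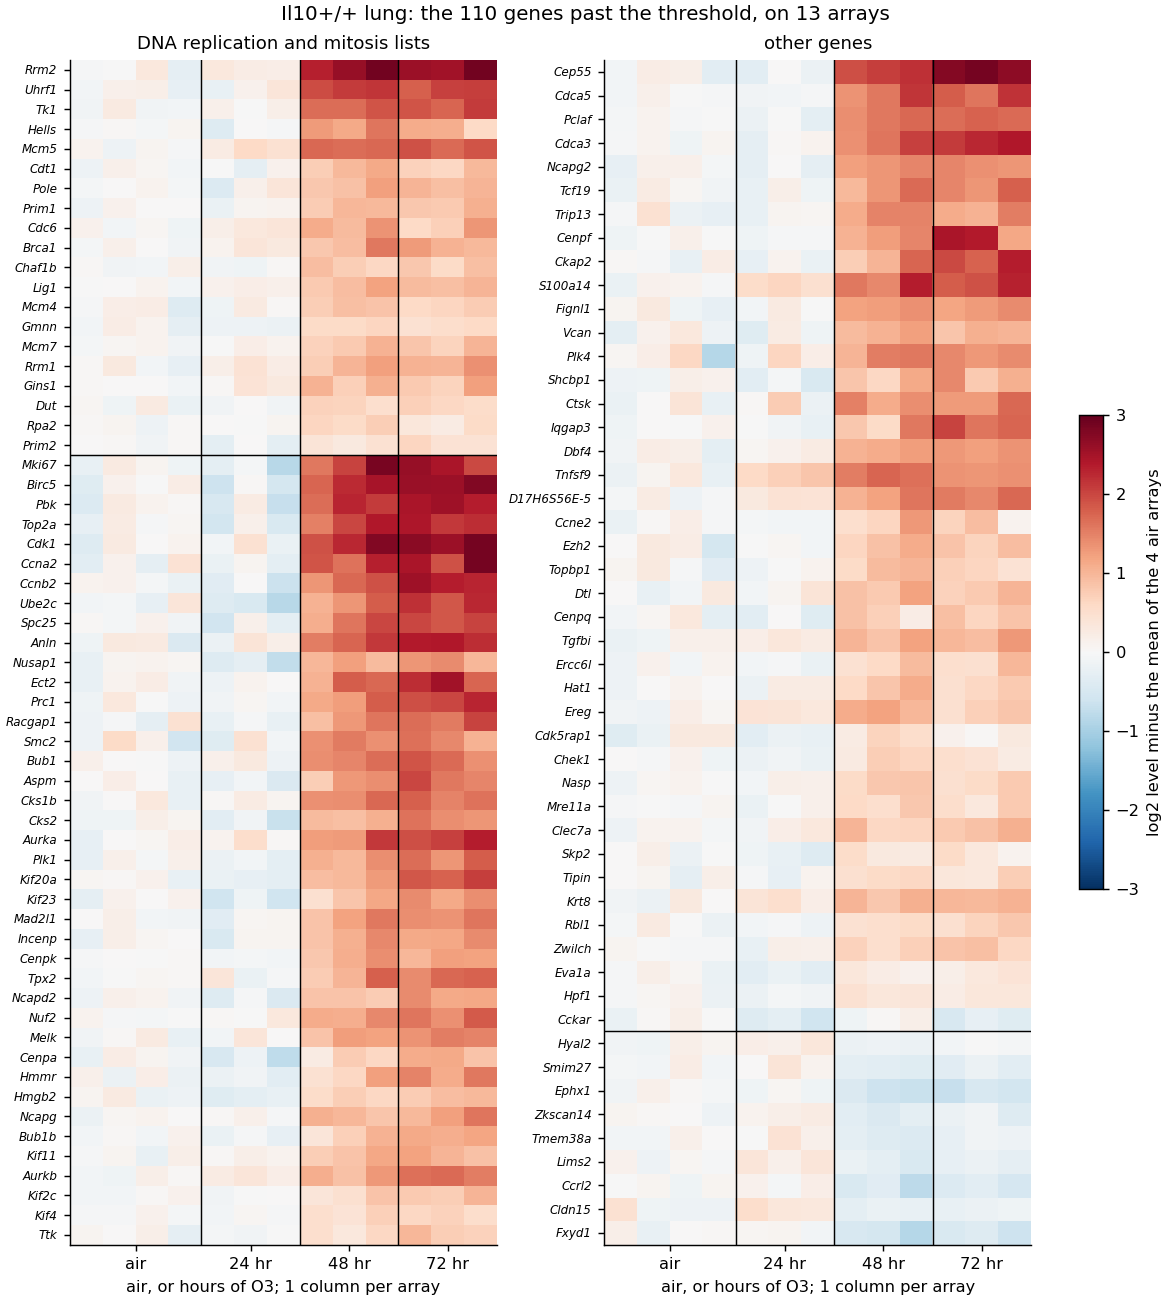
Log2 level of each of the 110 genes past the threshold on the 13 Il10+/+ arrays, as the difference from the mean of the 4 air arrays (red above, blue below), 1 row per gene and 1 column per array, in the order air, 24, 48 and 72 hr of O3; the left panel holds the DNA replication list over the mitosis list and the right panel the other genes that rose over the 9 that fell. The columns of 24 hr are near those of air in most rows, the columns of 48 hr and 72 hr are red in the rows of genes that rose, Cckar excepted, and the rows of the 9 genes that fell are pale.

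No gene passed on 28 of the 36 lists. Among them were those of acute phase, chemokine, IL-1, IL-6 and TNF family, heat shock, metallothionein, sterol synthesis, immediate early, interferon-stimulated and MHC class II genes. At the share of all genes that passed, 0.888%, most lists of this size would hold none. These counts of 0 therefore do not set the lists apart. Of 36 acute phase and STAT3 target genes 0 passed, with a median change of 0.10. Lcn2, lipocalin 2, an acute phase gene, had levels of 11.53, 11.23 and 11.17 at 48 hr, against 10.88, 10.60 and 10.60 at 24 hr (adjusted p = 0.303), and its mean in air was 9.98. Of 20 measured genes listed from those the study names, Mki67, S100a14 and Hat1 rose. A further 6 had changes from 0.50 to 0.62 with adjusted p between 0.222 and 0.789, namely Ccr1, Il1b, Il6, Socs3, Saa3 and Il33, and the other 11 had changes between -0.09 and 0.35. Il33, an alarmin of epithelial cells, had 10.93, 10.79 and 10.76 at 48 hr, against 10.09, 10.63 and 10.27 at 24 hr, and 9.58 on average in air.

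Some large changes did not pass over 25 arrays but passed in other fits. These genes were chosen after their values were seen. Tnc, the matrix protein tenascin C, had levels of 9.80, 9.37 and 9.49 at 48 hr, against 8.41, 7.97 and 8.12 at 24 hr, a change of 1.39 (SE 0.50, adjusted p = 0.303). Over the 13 Il10+/+ arrays its adjusted p was 0.0121. Timp1, an inhibitor of matrix proteases, had 10.94, 10.73 and 10.63 at 48 hr, against 9.80, 9.74 and 9.54 at 24 hr (change 1.07, SE 0.64, adjusted p = 0.609 over 25 arrays and 0.00645 over the 13). On the 2 Il10-/- arrays of 24 hr in the fit Timp1 had 11.53 and 6.79, and Tnc had 9.66 and 6.26. The anion transporter Slc26a4 (change 1.39, adjusted p = 0.063 over 25 arrays and 0.00282 over the 13) and Retnla, a product of alternatively activated macrophages and epithelium (change 1.20, adjusted p = 0.0754 and 0.00402), likewise had 48 hr arrays all above those of 24 hr.

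Most of the genes with the largest negative changes were highest on 1 array of 24 hr. Of 41 genes with a change under -0.7 on the log2 scale 0 passed, and 32 of them were highest, among the 6 arrays, on O3 24 hr replicate 2. In 11 of the 41 all arrays of 48 hr lay below those of 24 hr, against 10.7% of all genes. The atrial peptide gene Nppa had levels of 4.56, 4.81 and 5.47 at 48 hr, against 4.68, 9.52 and 4.72 at 24 hr, the fat hormone gene Adipoq had 4.57, 5.03 and 4.70 at 48 hr, against 5.06, 8.66 and 4.01 at 24 hr, and the high values were those of that array. The 17 genes of muscle and heart had a median change of -0.71, and of 0.00 without that array. The median level of these 17 genes relative to air was 1.69 on that array, against 0.07 and -0.51 on the other arrays of 24 hr and -0.41, -0.44 and 0.01 at 48 hr. This list also varied among the other Il10+/+ arrays, with -0.68 and -0.43 in air of 24 hr, 0.71 and 0.34 in air of 48 hr, and -0.80, 0.59 and -0.82 at 72 hr of O3. Dbp, an output gene of the circadian clock, had 5.10, 5.06 and 5.69 at 48 hr, against 4.93, 8.49 and 7.37 at 24 hr, high on the same array and on replicate 3. None of the 16 measured clock genes passed, where 0.888% of all genes did, and their median change was -0.32.

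**Figure D4:**
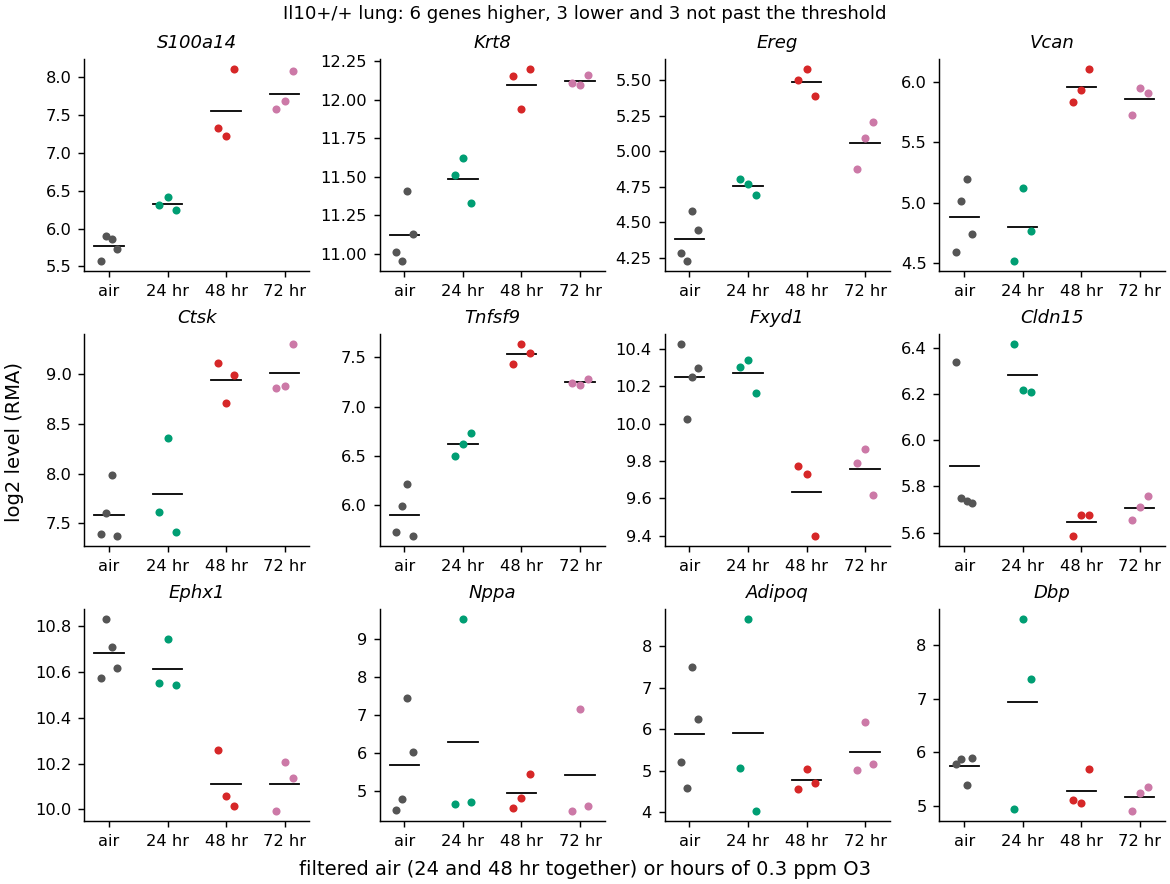
Log2 level of 12 genes in Il10+/+ lungs, 1 panel per gene with its own vertical scale, in filtered air (4 arrays) and after 24, 48 and 72 hr of O3 (3 arrays each), each point an array and each bar the mean of a group. The first 6 genes rose and the next 3 fell on the second day, with the arrays of 48 hr apart from those of 24 hr. Nppa and Adipoq are high on 1 array of 24 hr (9.52 and 8.66) and Dbp on 2 (8.49 and 7.37).

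Of the markers of resident lung cells only Cckar passed, where 0.888% of all genes did. Sftpc, the surfactant gene of alveolar type 2 cells, had levels of 14.33, 14.30 and 14.47 at 48 hr, against 14.33, 14.38 and 14.42 at 24 hr. It lay between 14.30 and 14.47 on all 13 Il10+/+ arrays, near the top of the scale, and shows that the tissue is lung but little of the number of these cells. The median change of markers was 0.07 for alveolar type 2 cells (14 genes), -0.06 for alveolar type 1 cells (10 genes) and 0.03 for club and goblet cells (16 genes). Among the last the receptor Cckar rose by 0.45. Its mean relative to air was -0.42 at 24 hr, 0.03 at 48 hr and -0.36 at 72 hr, so that it rose only to the level in air. Its call was kept in 21 of the 25 fits that left out an array. Endothelial markers had a median change of -0.20, with 17 of 22 below 0 and 0 called. Their summed level was 15.45 to 15.50 at 48 hr, against 15.53 to 15.80 at 24 hr. The groups did not overlap, but replicate 2 of 24 hr (15.53) lay close to the arrays of 48 hr. Among the 22 markers the arrays of 48 hr all lay below those of 24 hr in 8 and all above in 1, against 10.7% and 8.94% of all genes. For neutrophil, B cell, T cell and NK cell markers the median changes were -0.03, -0.12, -0.15 and -0.19, and the summed levels of the groups overlapped. The summed neutrophil level was 12.00 to 12.79 at 48 hr, against 11.80 to 12.53 at 24 hr. Whether a change in the mix of cells had a part in the rises was not tested.

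**Figure D5:**
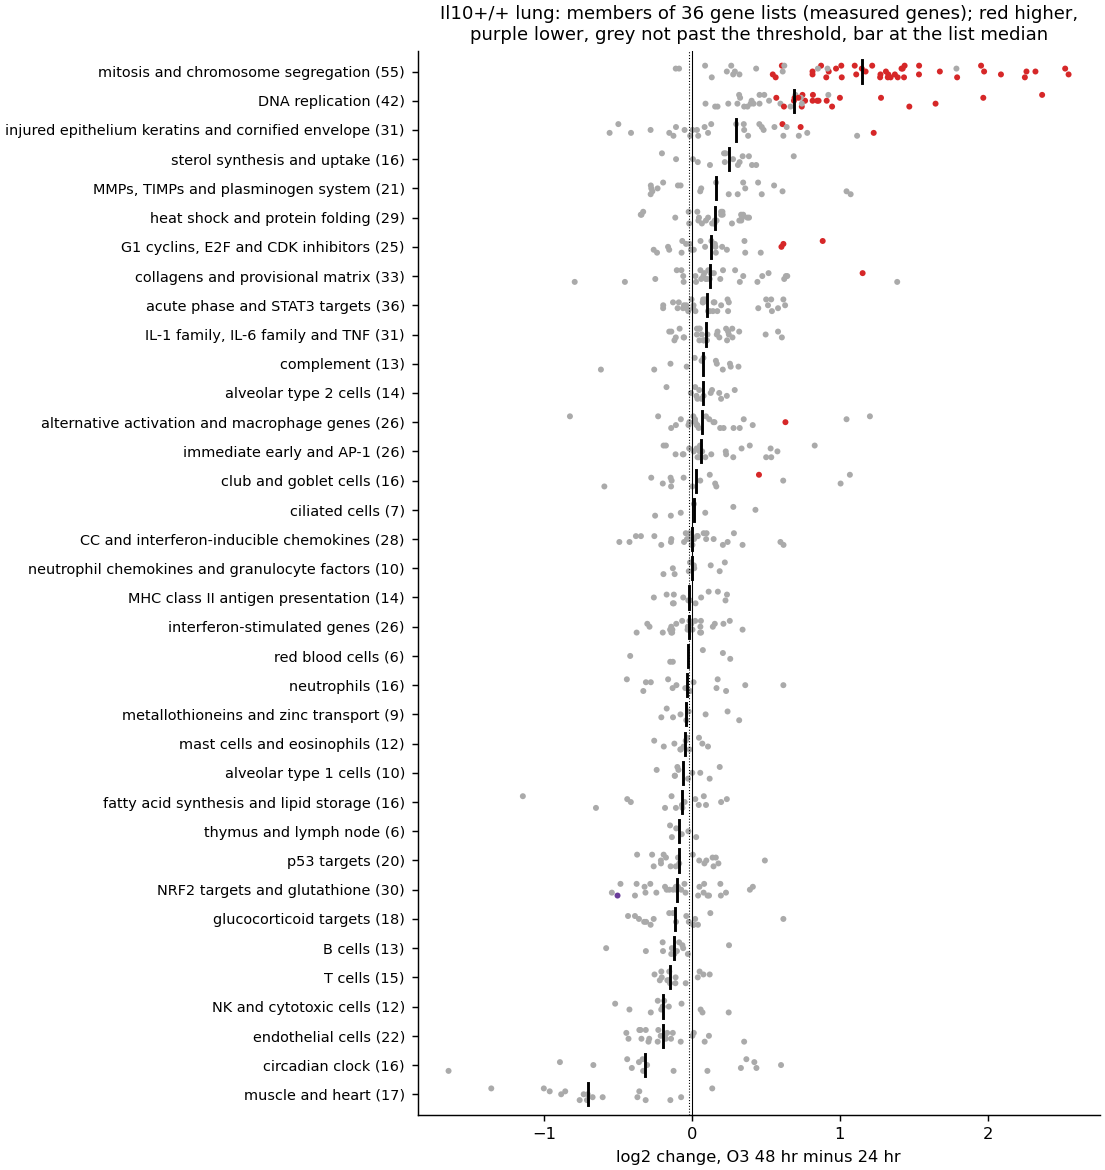
Log2 change, O3 48 hr minus 24 hr in Il10+/+ lungs, of the measured members of 36 gene lists (their number in brackets), ordered by list median, 1 point per gene (red higher, purple lower, grey not past the threshold) and a black bar at the median of each list; the dotted line is the median of all genes, -0.02. The lists of mitosis (1.15) and DNA replication (0.69) have the highest medians and 60 of the red points, and that of muscle and heart (-0.71) has the lowest.

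At 24 hr of O3 the division genes were near their level in air. The median level of the 55 mitosis genes relative to the air mean was -0.18, 0.02 and -0.16 on the arrays of 24 hr, 0.85, 0.98 and 1.28 on those of 48 hr, and 1.41, 1.32 and 1.41 on those of 72 hr. The 4 air arrays lay between -0.09 and 0.05, so that the arrays of 24 hr were near or below them. The 42 replication genes had -0.03, 0.11 and 0.08 at 24 hr, 0.68, 0.72 and 0.72 at 48 hr, and 0.62, 0.61 and 0.80 at 72 hr. Both lists were written with earlier results of these data known, and no test was run on these medians.

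Of the 101 genes that rose, 60 had a mean below that of air at 24 hr and 92 had covered under 25% of the distance between air and 48 hr, while all 101 were above air at 48 hr. As the genes were chosen by their difference from the arrays of 24 hr, low values there are in part a result of that choice. The 9 genes that were further along at 24 hr included S100a14, Krt8, Ereg and Tnfsf9, which had a mean above air by 1.79, 0.98, 1.11 and 1.64 at 48 hr, against 0.56, 0.36, 0.37 and 0.72 at 24 hr. The others were Aurkb, Mcm5, Gins1, Rrm1 and D17H6S56E-5. From 48 to 72 hr, times whose difference the choice used in part, the median change of the 101 genes was 0.14, with 70 higher at 72 hr. The extremes were Ckap2, a spindle protein (0.87 higher at 72 hr), and Ereg, with a change of -0.43. All 9 genes that fell had a mean below air at 48 hr, and at 72 hr all 9 were above their level of 48 hr, by 0.00 to 0.19 with a median of 0.12.

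In filtered air the same interval brought no call. Between 48 and 24 hr of air 0 genes passed in Il10+/+ mice (limma, 300 at an unadjusted p under 0.05), with 2 arrays at each time. The median air difference was 0.02 for the 101 genes, with a range from -0.43 to 0.58. When the air difference was subtracted from the O3 difference, 15 genes rose and 2 fell (0.121% and 0.0161% of all genes). All 15 were among the 101, and they were led by Cep55 (2.38, SE 0.36, adjusted p = 0.0187), Top2a (2.25), Anln (1.85), Tk1 (1.82) and Trip13 (1.81). The 2 that fell were Hyal2 (-0.65, adjusted p = 0.0476) and Atp2a1, a calcium pump of muscle (-1.01, adjusted p = 0.0476), whose air arrays had 6.00 and 5.88 at 48 hr, against 5.24 and 5.20 at 24 hr. The muscle and heart list moved with it, with a median air difference of 1.10, and its part in this call was not tested. All 101 genes kept a positive and all 9 a negative difference, with medians of 1.05 and -0.64. As the genes were chosen by the same O3 difference, this is in large part a result of that choice. Single genes moved either way. With air subtracted the change of Cdk5rap1 went from 0.73 to 0.15, with an air difference of 0.58. That of Krt8 went from 0.61 to 0.32, that of Tgfbi from 0.78 to 0.45 and that of Cldn15 from -0.63 to -0.32. Others grew, such as that of Hmgb2, from 0.92 to 1.27. With all 26 arrays 0 genes passed this comparison, and 0 passed without O3 24 hr replicate 1, air 24 hr replicate 2 or air 48 hr replicate 2.

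The same interval in Il10-/- lungs, which share no array with these, moved most of the same genes. Both comparisons came from the same fit, with a shared estimate of the spread of each gene. A gene of low spread was thus more easily called in both. In Il10-/- mice 244 genes were higher and 164 lower at 48 hr than at 24 hr of O3 (1.97% and 1.32% of all genes, 3.29% together), with 3 arrays of 48 hr and 2 of 24 hr. These counts depended on the fit, with 106 higher over all 26 arrays, 9 higher and 0 lower with array weights, and 152 to 752 higher and 74 to 587 lower when 1 array was left out. Of the 101 genes that rose in Il10+/+ mice 77 (76.2%) also rose in Il10-/- mice, where they were 31.6% of the 244, and 7 of the 9 that fell also fell (77.8%, or 4.27% of the 164). The sign was shared by 100 of the 101, the exception being Cdk5rap1, with a change of -0.30 in Il10-/- and of 0.73 in Il10+/+ lungs. Mki67 had a mean of 8.85 ± 0.58 (SD, n = 3) at 48 hr in Il10-/- lungs, against 5.16 and 5.26 on the 2 arrays of 24 hr, a change of 3.64 (adjusted p = 8.75e-06).

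The difference between the genotypes in the change over the second day did not pass for any gene (limma, lowest adjusted p = 0.809, 517 genes at an unadjusted p under 0.05), which does not show that the genotypes changed alike. It rested on the 2 Il10-/- arrays of 24 hr. With 1 of them left out, so that the other is assumed to vary like the other groups, 53 genes were higher and 45 lower in the Il10-/- change without replicate 1, and 393 higher and 85 lower without replicate 3. Both genes named next were chosen after their values were seen. For Tnfsf9 the change was 0.35 in Il10-/- lungs (adjusted p = 0.433), with 7.27 and 6.44 on the arrays of 24 hr, and 0.92 in Il10+/+ lungs. For Uhrf1 it was 1.11 in Il10-/- lungs (6.70 and 5.07 on the 2 arrays of 24 hr, adjusted p = 0.0636) and 1.97 in Il10+/+ lungs.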

How the data were processed

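RNA of left lungs was measured on Affymetrix mouse expression arrays, 26 in all. The deposited values are log2 signals that the authors summarised with RMA across arrays, and the version used is not given in the sources used here. Of 22690 probe sets, 20393 had a single symbol in the platform annotation, 691 had several and 1606 were not listed; each of 12394 genes was read from its probe set of highest mean, and 12370 matched RefSeq GRCm38.p6, the source of the promoters. limma 3.58.1 in R 4.3.3 fitted 8 groups over 25 arrays, with air of both times pooled by genotype and Benjamini-Hochberg adjustment over all genes. The methods leave out 1 outlying Il10-/- O3 24 hr array without naming it. Replicate 2 was left out here with its values known. The air comparison kept its times apart. The scripts were tested on simulated data. The number of arrays limits the precision.

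Named are the 15 largest changes in each direction past the threshold, up to 4 per list and direction, genes listed from those the study names and the 5 largest of the other comparisons. Further members of the division lists, other genes and those not past the threshold were chosen after their values were seen. The members and lists were chosen with earlier results of these data known. Alternatives varied the arrays, groups, weights, block, filter, centring and probe sets. The library labelled Il10-/- air 48 hr replicate 1 had an Il10 level of 3.87, near the 3.92 to 4.25 of the Il10+/+ arrays, against 6.29 to 7.71 on the other Il10-/- arrays.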

Additional observations from a re-analysis of the deposited data

Results flagged for a closer look

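Among the 4 Il10+/+ air arrays, 1 array stood apart in 4 of 83 genes tested, where chance flags about 1 in 20. Cldn15 was highest on air 24 hr replicate 1 (6.34, the next 5.75), Smim27 on air 48 hr replicate 1 (8.91, the next 8.62) and Tk1 on air 24 hr replicate 2 (5.48, the next 5.13). Timp1 was lowest on air 48 hr replicate 2 (6.66, the next 7.26). Of 2246 probe sets without a single gene symbol, which no comparison of genes used, 10 were higher and 0 lower at 48 hr than at 24 hr of O3 in Il10+/+ lungs.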

How the results depend on the processing

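All 110 genes kept their sign under every setting that measured them. Under most settings this was fixed in advance, since the change came from the same values of the same 6 arrays. The counts moved. With all 26 arrays the 101 higher and 9 lower genes became 0 and 0, and 20 replication and 40 mitosis genes became 0 and 0. Array weights gave 261 and 166, with 31 replication genes. Without the genes of low mean level 64 were higher, with 26 mitosis genes. With a 2-fold minimum 52 were higher and 0 lower, with 5 replication genes. The lower count was 20 over the 13 Il10+/+ arrays, 4 over the 6 compared, and 22 over 23 arrays without any Il10-/- O3 24 hr array, a setting chosen after seeing the data. Leaving out 1 array gave 58 to 149 higher, 1 to 22 lower, 8 to 29 replication and 30 to 42 mitosis genes.

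With air subtracted, 15 higher and 2 lower became 0 and 0 (26 arrays), 33 and 8 (weights), and 4 and 0 (low genes out), the lower count was 0 with centred arrays, and single arrays left 0 to 38 and 0 to 4. For Il10-/- mice, 244 higher and 164 lower became 106 higher (26 arrays), 9 and 0 (weights), and 152 to 752 and 74 to 587 without single arrays. The genotype difference gave 0 to 393 higher and 0 to 85 lower without single arrays. The changes of Nppa (-2.17 to 0.248) and Adipoq (-2.10 to 0.229) turned positive without Il10+/+ O3 24 hr replicate 2. The cause of these shifts was not tested.

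Whether replicate numbers pair the arrays of 24 and 48 hr was not tested. Deviations from the group mean had correlations of 0.394, 0.0519 and 0.105 between same-numbered arrays. Between arrays of different number they lay from -0.294 to 0.138. With the number as a replicate block 124 genes passed over 25 arrays, 106 of them among the 110, and 108 over the 6 arrays (74 among the 110), with 5 lower. The block gave 280 lower genes in Il10-/- mice and 1 in the genotype difference.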
